A study of Mus musculus with 32 samples.

Results

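The transcripts of 10 temperature-responsive genes were followed through 32 lung libraries of 12 mice. They were the heat shock genes Hspa1a, Hspa1b, Hspa5, Hspa8, Hsp90aa1, Hsph1, Dnajb1 and Hspb1 and the cold-inducible genes Cirbp and Rbm3. They were chosen by name, each as the row of the deposited gene count table whose Ensembl identifier belongs to that symbol. All 10 of 10 were found among the 41687 rows, and all 10 passed the filter on low counts in every comparison.

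The mice were 6 wild-type C57b/6 animals (WT) and 6 Bmal1 knock-outs (KO), bred in-house and labelled as female animals of 8 to 18 weeks. Bmal1, gene symbol Arntl, belongs to the positive limb of the circadian clock and acts as a transcription factor. Lungs were snap-frozen after CO2 euthanasia, and no mouse is labelled as having received a heat, cold or drug treatment. RNA of every mouse went into a RiboZero library, for which ribosomal RNA was pulled down, and a PolyA library, for which polyadenylated RNA was selected, each from 200 ng. RNA of mice 3 to 6 of each genotype also went into a NoSelect library, made from 15 ng without either step and combined from 6 preparations. Each RiboZero and PolyA group therefore held 6 libraries and each NoSelect group 4. Whether the deletion was whole-body or confined to a tissue, and the hour of collection, are not given in the sources used here. The libraries are of whole lung, in which fewer cells of a type and less RNA per cell cannot be told apart.

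Heat shock proteins are chaperones that keep other proteins folded. The transcription factor HSF1 is held inactive by chaperones, and when unfolded proteins draw these away it binds heat shock elements, arrays of the unit NGAAN and its reverse complement, and raises transcription of genes such as Hspa1a, Hspa1b, Dnajb1 and Hsph1. The endoplasmic reticulum has its own chaperones, led by Hspa5 (BiP), which answer to the unfolded protein response through a different element. Cirbp and Rbm3 encode small RNA-binding proteins whose transcripts rise with mild cooling, and both they and several heat shock genes follow the daily rhythm of body temperature in mouse tissues.

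Promoter sequences from RefSeq, build GRCm38.p6, were matched for 7 of the 10 genes. Those of the paired inducible HSP70 genes, Hspa1a and Hspa1b, are shown first, because they are nearly identical. The others are shown for the different elements they hold. Positions count from the RefSeq start site, and capitals mark a motif found by search on both strands. In the first 3 sequences the capitals are GAA and TTC 2 bases apart, with 1 further base on either side, which is a pair of heat shock units, and in Hspa1a and Hspa1b also TCCCCGCC, described as a cold response element, on the other strand. In Hsph1 they are the E-box CACGTG and a heat shock element of 3 units, TTC, GAA and TTC each 2 bases apart, in Hspa5 the endoplasmic reticulum stress element, CCAAT and CCACG 9 bases apart, and in Cirbp TCCCCGCC. The windows are, in order, chr17:34972157-34972306 and chr17:34959239-34959388 on the minus strand, chr5:135887769-135887918 on the plus strand, chr5:149636286-149636365 on the minus strand, chr2:34771940-34772089 on the plus strand and chr10:80167589-80167838 on the plus strand. They run from position -150 to -1, except Hsph1, from -50 to 30, and Cirbp, from -250 to -1.
Hspa1a: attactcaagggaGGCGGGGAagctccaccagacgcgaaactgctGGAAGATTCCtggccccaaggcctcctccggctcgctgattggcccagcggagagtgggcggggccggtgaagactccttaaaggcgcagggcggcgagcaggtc
Hspa1b: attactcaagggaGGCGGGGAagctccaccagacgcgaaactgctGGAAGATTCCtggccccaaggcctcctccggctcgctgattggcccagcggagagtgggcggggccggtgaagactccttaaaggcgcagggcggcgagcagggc
Hspb1: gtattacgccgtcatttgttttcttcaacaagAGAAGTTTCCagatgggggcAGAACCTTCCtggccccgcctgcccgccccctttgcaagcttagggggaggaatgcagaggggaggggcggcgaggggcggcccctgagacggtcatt
Hsph1: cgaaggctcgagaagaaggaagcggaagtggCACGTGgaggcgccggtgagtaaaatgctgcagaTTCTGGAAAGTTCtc
Hspa5: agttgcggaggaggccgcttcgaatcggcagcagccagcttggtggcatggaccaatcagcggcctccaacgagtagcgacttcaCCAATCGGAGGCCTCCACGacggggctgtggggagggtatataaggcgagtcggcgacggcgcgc
Cirbp: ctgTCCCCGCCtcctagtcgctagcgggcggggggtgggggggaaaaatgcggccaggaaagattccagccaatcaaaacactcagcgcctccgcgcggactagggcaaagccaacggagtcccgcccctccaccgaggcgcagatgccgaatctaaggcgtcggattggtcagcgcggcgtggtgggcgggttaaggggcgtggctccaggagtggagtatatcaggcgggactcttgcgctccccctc

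Over the 32851 promoter windows of the table, each from position -250 to 50, the element of 3 units, TTC, GAA and TTC or on the other strand GAA, TTC and GAA, occurred in 0.603%, and among the 7 genes in Hsph1 alone. The pair of units, which overlaps that longer element, occurred in 7.80% of windows and in Hspa1a, Hspa1b, Hspb1 and Hsph1. The endoplasmic reticulum stress element occurred in 0.119% of windows and in Hspa5 alone, starting at position -65. TCCCCGCC occurred in 5.38% of windows and in Cirbp, Dnajb1, Hspa1a and Hspa1b. CACGTG occurred in 7.15% and in Hsph1. CCAAT occurred in 37.4% and in 6 of the 7, and TATAAA in 13.6% and in 0 of the 7. The Hspa1a and Hspa1b promoters differed at 1 of the 150 bases shown and at 3 of 250. A match is a description of these letters only.

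The knock-out label was checked first. Arntl stood at 34.1 to 42.6 CPM in WT and 19.1 to 23.6 in KO RiboZero libraries, and at 9.70 to 10.4 against 5.81 to 6.58 in NoSelect, whereas the PolyA groups overlapped at 31.9 to 37.9 and 26.8 to 32.4. CPM are counts relative to the library's total, here on the TMM scale, which corrects that total for the library's composition. RiboZero totals lay between 11638590 and 25801192 counts and PolyA totals between 29924271 and 41548759. NoSelect totals lay between 74979759 and 115059730, but Lars2 and a Gm42418 transcript took 67.8% to 71.5% of them, so CPM values of NoSelect are not on the same footing as those of the other preparations. KO mouse 6 stood apart in all 3 preparations: labelled female, it had 2195 to 2967 counts of the Y-linked gene Ddx3y and 2 to 16 of Xist, against 13590 to 52858 of Xist in the other libraries. Its NoSelect library is labelled liver, but 12 hepatocyte markers summed to 2.53 CPM there (1.34 to 2.53 over all NoSelect libraries), albumin (Alb) stood at 0.137 CPM, and the lung gene Sftpc at 1867 CPM. The markers of lung epithelium, endothelium and macrophages were present in every library. Where the sign of a difference between KO and WT turns without KO mouse 6, both values are given.

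**Figure D1:**
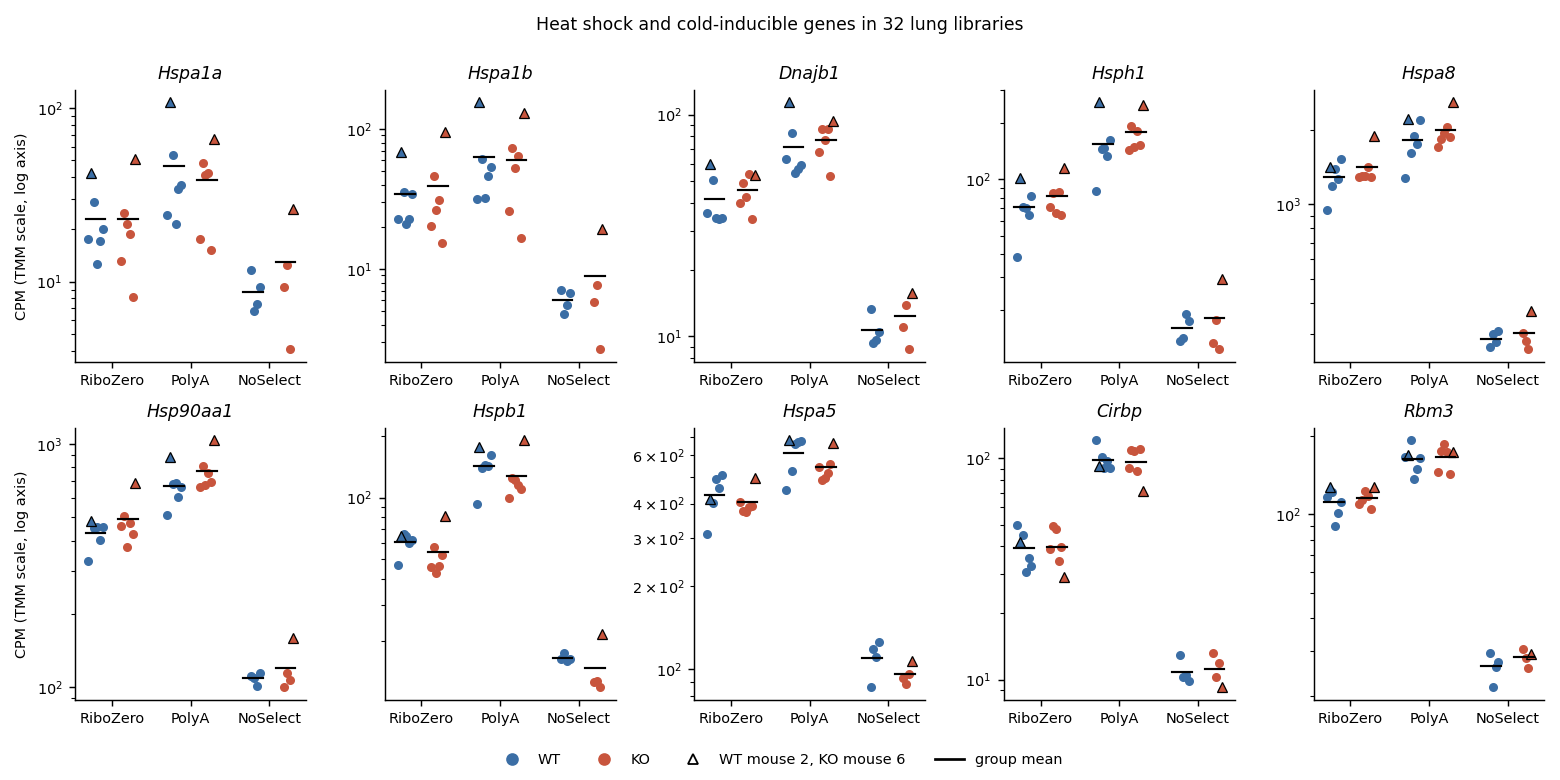
Level of each gene in each library, in CPM on a log axis, for RiboZero, PolyA and NoSelect libraries, with WT in blue, KO in red, triangles for WT mouse 2 and KO mouse 6, and bars at the group means. WT and KO libraries overlap in every panel, and the triangles lie at the top of their groups for Hspa1a and Hspa1b.

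Per kilobase of the principal transcript, the constitutive HSP70 gene Hspa8 was the most abundant of the 10 in all 3 preparations, at 564 ± 92.2 CPM per kilobase in RiboZero (SD, n = 12), 799 ± 138 in PolyA (n = 12) and 123 ± 14.7 in NoSelect (n = 8). Hsp90aa1 followed at 139.8 ± 26.6 in RiboZero, then Hspa5 at 114 ± 16.0, and Hspb1 at 63.8 ± 12.5. The cold-inducible pair came next, Rbm3 at 40.8 ± 4.001 and Cirbp at 29.98 ± 5.51 in RiboZero. In PolyA that order turned, with Cirbp at 73.8 ± 9.99 and Rbm3 at 59.0 ± 6.30. Hsph1 at 20.03 ± 5.16 and Dnajb1 at 14.5 ± 3.17 were lower, and the inducible HSP70 genes were lowest, Hspa1b at 13.0 ± 8.31 and Hspa1a at 7.75 ± 4.21 CPM per kilobase in RiboZero. Neighbours in the RiboZero order whose ranges of 1 SD around the mean overlapped were Hsp90aa1 and Hspa5, Cirbp and Hsph1, Hsph1 and Dnajb1, Dnajb1 and Hspa1b, and Hspa1b and Hspa1a. In NoSelect the last pair turned, with Hspa1a at 3.67 ± 2.28 above Hspa1b at 2.67 ± 1.81.

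Hspa1a and Hspa1b, which encode nearly identical stress-inducible HSP70 proteins, differed between mice several-fold and not between genotypes beyond that spread. They lie next to each other on the minus strand of chromosome 17 (GRCm38, GENCODE M21), Hspa1a at 34969190 to 34972156 and Hspa1b at 34956436 to 34959238, each as 1 exon. In RiboZero libraries Hspa1b had a lowest, median and highest CPM of 21.1, 28.7 and 68.2 in WT and of 15.3, 28.8 and 94.9 in KO. In PolyA the values were 31.9, 49.99 and 155 in WT and 16.5, 58.3 and 131 in KO. WT mouse 2 and KO mouse 6 were the high libraries in both preparations, and KO mouse 5 was the lowest. In NoSelect, WT mice 3 to 6 stood at 7.14, 4.81, 5.55 and 6.75 CPM and KO mice 3 to 6 at 5.78, 7.76, 2.67 and 19.4, so that KO libraries lay both above and below all of WT. The difference of KO minus WT was 0.19 ± 0.43 in RiboZero (log2, SE), -0.06 ± 0.50 in PolyA and 0.57 ± 0.50 in NoSelect. Without KO mouse 6 it was -0.29, -0.43 and -0.17 in RiboZero, PolyA and NoSelect, and without WT mouse 2 it was 0.51 in RiboZero and 0.43 in PolyA.

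Hspa1a followed the same pattern. Its lowest, median and highest CPM in RiboZero were 12.6, 18.8 and 42.5 in WT and 8.10, 20.1 and 50.9 in KO. In PolyA they were 21.6, 35.0 and 108 in WT and 15.1, 41.7 and 66.9 in KO. The highest WT library was again that of mouse 2 and the highest KO library that of mouse 6. In NoSelect, WT mice 3 to 6 had 11.6, 6.74, 7.42 and 9.32 CPM and KO mice 9.32, 12.4, 4.06 and 26.2. For Hspa1a KO minus WT was -0.012 ± 0.40, -0.26 ± 0.44 and 0.58 ± 0.47 in RiboZero, PolyA and NoSelect, and -0.42, -0.48 and -0.028 without KO mouse 6. Without WT mouse 2 it was 0.25 in RiboZero and 0.19 in PolyA, so the sign in these preparations turned on single mice.

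The co-chaperones of HSP70 varied less. Dnajb1, an HSP40 that stimulates the HSP70 ATPase and a target of HSF1, lies on chromosome 8 at 83608193 to 83612653. It had a lowest, median and highest CPM of 33.7, 35.1 and 59.9 in WT and 34.0, 45.8 and 53.9 in KO RiboZero libraries, and of 54.5, 61.0 and 113 against 52.6, 81.2 and 93.8 in PolyA. In NoSelect it stood at 13.4, 9.34, 9.61 and 10.4 CPM in WT mice 3 to 6 and at 11.0, 13.9, 8.74 and 15.6 in KO mice. The groups overlapped throughout, with WT mouse 2 highest in RiboZero and PolyA, and KO minus WT was 0.14 ± 0.16, 0.11 ± 0.19 and 0.21 ± 0.18.

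Hsph1, an HSP110 that exchanges the nucleotide of HSP70, lies on chromosome 5 at 149614287 to 149636376, minus strand. Its lowest, median and highest CPM were 38.5, 70.4 and 102 in WT and 64.4, 78.2 and 115 in KO RiboZero libraries. In PolyA they were 86.2, 147 and 259 in WT and 143, 168 and 251 in KO. The lowest library in both was that of WT mouse 1, and the highest WT library that of mouse 2. NoSelect values were 13.6, 14.0, 19.0 and 17.3 CPM in WT mice 3 to 6 and 13.3, 17.7, 12.3 and 29.3 in KO mice, the last again mouse 6. KO minus WT was 0.19 ± 0.20, 0.20 ± 0.22 and 0.19 ± 0.26, and in NoSelect -0.15 without KO mouse 6.

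Hspa8 and Hsp90aa1, the abundant cytosolic HSP70 and HSP90 that serve unstressed cells, had slightly higher means in KO in each preparation, within the spread between mice, and in NoSelect not without KO mouse 6. Hspa8 (chromosome 9, 40800984 to 40810087) had a lowest, median and highest CPM of 948, 1324 and 1521 in WT and 1286, 1303 and 1891 in KO RiboZero libraries. Its PolyA values were 1279.7, 1826 and 2218 in WT and 1707, 1906 and 2583 in KO. The low end of WT was mouse 1 and the high end of KO mouse 6, while the medians in RiboZero lay close together. NoSelect values were 265, 298, 276 and 306 CPM in WT mice 3 to 6 and 301, 281, 259 and 371 in KO mice. The genotype difference of Hspa8, KO minus WT, was 0.14 ± 0.12, 0.13 ± 0.14 and 0.08 ± 0.11, and without KO mouse 6 it was 0.035, 0.049 and -0.031. These NoSelect values are of the Hspa8 row alone. In KO mice 4 to 6 and WT mouse 6, 11.3% to 11.7% of the summed NoSelect counts stood in Gm8355, a row of shared sequence. That sum was not fitted without KO mouse 6, so the turn of sign holds for the Hspa8 row only.

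Hsp90aa1 (chromosome 12, 110690605 to 110702728, minus strand) ran through 329, 452 and 479.8 CPM in WT and 378, 466 and 690.3 in KO RiboZero libraries, as lowest, median and highest. In PolyA the same 3 values were 508, 676 and 883 in WT and 667, 727 and 1031 in KO. NoSelect WT mice 3 to 6 had 111, 109, 101 and 114 CPM and KO mice 99.5, 114, 106 and 159. Apart from KO mouse 6 the NoSelect libraries of both genotypes covered the same range. Hsp90aa1 in KO differed from WT by 0.19 ± 0.13, 0.20 ± 0.13 and 0.14 ± 0.14, and by -0.025 in NoSelect without that mouse.

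Hspb1, a small heat shock protein that binds unfolded clients without ATP, and Hspa5, the HSP70 of the endoplasmic reticulum, had lower means in KO in all 3 preparations, again within the spread. Hspb1 (chromosome 5, 135887919 to 135889563) had a lowest, median and highest CPM of 46.7, 63.5 and 66.7 in WT and 43.0, 49.2 and 81.2 in KO RiboZero libraries, and of 93.3, 143 and 176 against 99.1, 119 and 190.1 in PolyA. NoSelect values were 16.3, 17.5, 16.0 and 16.2 CPM in WT mice 3 to 6 and 12.6, 12.7, 11.8 and 21.6 in KO mice. KO mice 3 to 5 thus lay below all WT mice in NoSelect and KO mouse 6 above them. Hspb1 in KO differed from WT by -0.16 ± 0.14, -0.17 ± 0.17 and -0.17 ± 0.18. Without KO mouse 6 the NoSelect difference became -0.41, with 0.00737 as its p from edgeR adjusted by Benjamini-Hochberg. That was the 1 call of the 10 genes in any comparison of KO with WT that left out 1 mouse. The same fit called 472 of all rows, against 372 in NoSelect with all mice.

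Hspa5 (chromosome 2, 34771970 to 34777547) had a lowest, median and highest CPM of 310.0, 437 and 506 in WT and 373, 391 and 495 in KO RiboZero libraries, and of 448, 664 and 677 against 486, 528 and 666 in PolyA. WT mouse 1 was the lowest of all in both preparations, and KO mouse 6 the highest of KO. In NoSelect, which lacks WT mouse 1, WT mice 3 to 6 had 86.0, 118, 111 and 126 CPM and KO mice 93.3, 88.9, 96.5 and 107. KO minus WT was -0.09 ± 0.11, -0.16 ± 0.11 and -0.19 ± 0.11.

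Cirbp and Rbm3 had nearly the same mean level in both genotypes. Cirbp (chromosome 10, 80165985 to 80172786) had a lowest, median and highest CPM of 30.8, 38.7 and 49.9 in WT and 29.2, 39.3 and 49.3 in KO RiboZero libraries, and of 90.3, 94.7 and 121 against 70.9, 99.3 and 109.8 in PolyA. Its NoSelect values were 12.9, 10.2, 10.5 and 9.83 CPM in WT mice 3 to 6 and 13.2, 10.3, 11.9 and 9.22 in KO mice. WT mouse 1 was high and KO mouse 6 low, the reverse of their place for most heat shock genes. KO minus WT was 0.018 ± 0.14, -0.041 ± 0.11 and 0.036 ± 0.12, and in PolyA 0.038 without KO mouse 6. Rbm3 (X chromosome, 8138975 to 8145880, minus strand) had values of 90.4, 114 and 128 in WT and 105, 116 and 128 in KO RiboZero libraries, and of 137, 166 and 192 against 144, 174 and 187 in PolyA. NoSelect libraries held 29.5, 21.7, 26.0 and 27.2 CPM in WT mice 3 to 6 and 30.4, 28.1, 25.7 and 29.1 in KO mice. KO minus WT was 0.05 ± 0.08, 0.03 ± 0.09 and 0.12 ± 0.09.

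In the test across all rows, none of the 10 genes was called between KO and WT at an adjusted p under 0.05. The calls were 0 of 10 in RiboZero, where 3.46% of all rows tested were called, 0 of 10 in PolyA (4.03%) and 0 of 10 in NoSelect (2.17%), by the quasi-likelihood test of edgeR with p adjusted by Benjamini-Hochberg. At an unadjusted p under 0.05 the counts were also 0 of 10 in each, beside 16.4%, 18% and 15.7% of all rows, and DESeq2 called 0 of 10. The lowest adjusted p was 0.527 in RiboZero and 0.458 in PolyA, both for Hsp90aa1, and 0.473 in NoSelect, for Hspa5. WT and KO libraries overlapped for all 10 genes, while 2.89%, 3.21% and 9.51% of all rows did not overlap. The median difference over the 10 genes was 0.10, -0.01 and 0.13 on the log2 scale, and that over all rows tested was close to 0 in each. What the test could resolve differed by gene. The 95% interval of the difference lay within 1 log2 unit either way for 9, 8 and 8 of the 10, and within 0.5 for 7, 5 and 5. The interval of Hspa1b reached from -0.57 to 1.71 in NoSelect, that of Rbm3 from -0.09 to 0.33.

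**Figure D2:**
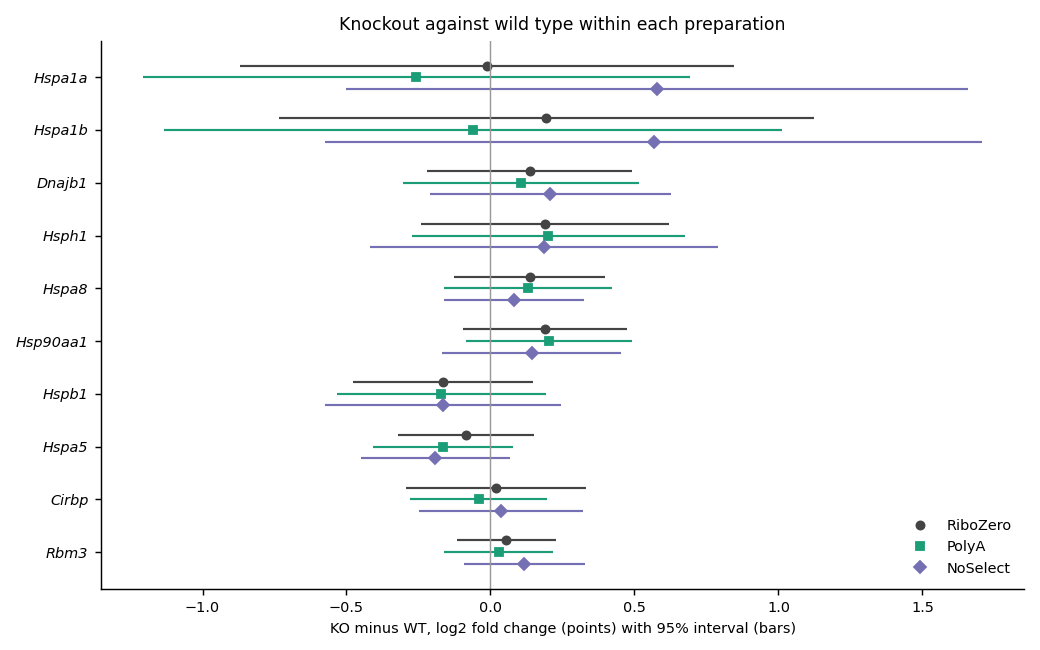
KO minus WT of each gene in log2 units, with 95% intervals from edgeR, in RiboZero, PolyA and NoSelect libraries. Every interval crosses 0, and those of Hspa1a and Hspa1b are the widest, up to 1.71 in NoSelect.

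The difference between KO and WT was also not detectably different between preparations. In the interaction of genotype and preparation edgeR called 0 of the 10 genes and 0 of all rows for each of the 3 pairs of preparations, and an unadjusted p under 0.05 was reached by 2.24%, 1.39% and 1.82% of rows (PolyA against NoSelect, RiboZero against NoSelect, PolyA against RiboZero). DESeq2 called 13, 9 and 11 rows, none of them among the 10. The largest of the 10 was Hspa1a in PolyA against NoSelect, at -0.86 ± 0.71. The p-values of KO against WT measure the spread between these mice, which are labelled as separate animals. Those of the interaction treat the libraries of one mouse as independent, so they ignore the pairing and do not measure that spread alone. With the mouse as a block the interaction also called 0 of the 10 genes for each pair. With simulated counts, the interaction fits recovered 78%, 84% and 74% of rows changed by 1 log2 unit for these pairs. The fits of KO against WT recovered 91%, 84% and 90% in RiboZero, PolyA and NoSelect. The simulated libraries of a mouse were independent, and the changed rows were drawn at random among rows of sufficient counts. These rates therefore do not show what could be detected for the 10 genes, which vary more than most rows.

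Other genes of the same pathways were read from 5 lists. Among 32 cytosolic chaperones and regulators of the HSF1 axis, of which 32, 31 and 31 were tested, 1 was called higher in KO in each preparation and 0 lower, or 3.13%, 3.23% and 3.23%. These shares are near the 3.46%, 4.03% and 2.17% of all rows, so the count says nothing particular of the list. This was Bag1, a nucleotide exchange factor of HSP70, in RiboZero (0.13 ± 0.03, adjusted p 0.0396 by edgeR's test) and in PolyA (0.18 ± 0.04, adjusted p 0.0195). In NoSelect it was Hspa2, an HSP70 best known from testis (0.42 ± 0.06, adjusted p 0.0128), which stood at 0.39 with an adjusted p of 0.0549 in RiboZero and at 0.28 with 0.196 in PolyA. Of 26 endoplasmic reticulum chaperones and genes of the unfolded protein response, 0 were called in RiboZero and PolyA by edgeR, where 1 and 3 had an unadjusted p under 0.05. In NoSelect 1 was called lower: Sdf2l1, an endoplasmic reticulum protein induced by that response (-0.47 ± 0.08, adjusted p 0.0262), at -0.20 in RiboZero and -0.24 in PolyA. The list's median was -0.07, -0.11 and -0.12, and 22, 22 and 24 of the 26 (84.6%, 84.6% and 92.3%) had a difference below 0, as had 50%, 50.8% and 49.8% of all rows. In RiboZero and PolyA no single gene of the list passed. These shares were not tested. Genes such as Hyou1 and Manf moved with Hspa5 across mice (mean r 0.971 and 0.922 over RiboZero and PolyA), and the preparations share mice. Neither the genes nor the preparations are therefore replicates of a difference in KO. Of 8 mitochondrial chaperones, 6 tested small heat shock proteins and 13 splicing factors and targets known to respond to temperature, edgeR called 0 in each preparation, with at most 2 in a list at an unadjusted p under 0.05.

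The mice themselves differed in these transcripts more than most transcripts of like abundance did. Around the genotype mean, log2 CPM of Hspa1a had an SD of 0.77 in RiboZero, 0.85 in PolyA and 0.82 in NoSelect, and that of Hspa1b 0.80, 0.96 and 0.85. Rows within 0.5 log2 units of their mean level had a median SD of 0.12 and 0.10 in RiboZero, and 99.3% and 99.5% of them had a smaller SD than Hspa1a and Hspa1b. Hsph1 followed with 0.40, 0.42 and 0.43, and Dnajb1 with 0.31, 0.36 and 0.31. Rbm3 had the smallest, 0.15, 0.16 and 0.15, still above 82.7%, 78.1% and 88.3% of rows of like level.

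This spread was shared by libraries made from the same mouse with different preparations. The deviation of a mouse from its genotype mean in RiboZero correlated with that in PolyA, over 12 mice, with Pearson's r of 0.94 for Hspa1a, 0.95 for Hspa1b, 0.98 for Dnajb1 and 0.97 for Hsph1. For Hspa8 r was 0.96, for Hsp90aa1 0.90, for Hspb1 0.85, for Hspa5 0.91, for Cirbp 0.85 and for Rbm3 0.84. Spearman's rho ran from 0.77 for Hspb1 to 0.97 for Hspa1a. All 10 passed in permutation tests adjusted by Benjamini-Hochberg over the 10, the highest adjusted p being 0.00913 for r and 0.0094 for rho. Without the 2 mice farthest from the median, 9 of 10 still passed at an adjusted p under 0.05, r lying between 0.66 (Hspa5) and 0.96. The exception was Hspb1, where r fell to 0.18 (adjusted p 0.649, permutation test), so that relation rests on WT mouse 1 and KO mouse 6. Both libraries of a mouse share its lung and its RNA. Over 5578 rows, the RiboZero and PolyA deviations of one mouse correlated at 0.55 to 0.87. The permutation tests were run on the 10 genes alone, so no share over all rows stands beside these counts.

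**Figure D3:**
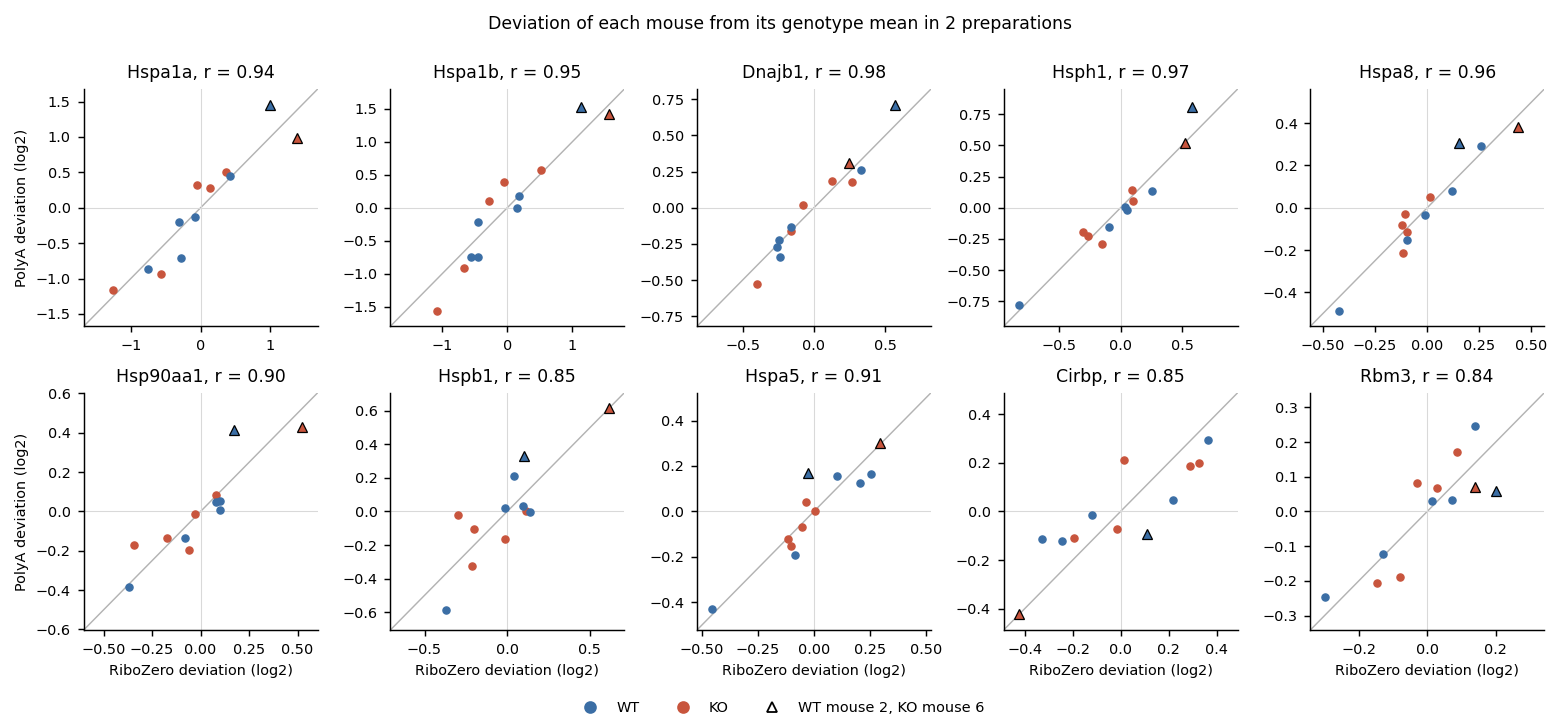
Deviation of each mouse from its genotype mean in log2 CPM, RiboZero on the x axis and PolyA on the y axis, 1 panel per gene with r in its title, WT blue and KO red. Points lie along a rising line in each panel, and those of Hspa1a and Hspa1b span more than 2 log2 units.

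In the 8 mice with NoSelect libraries the pattern was alike, again tested for the 10 genes alone. Between NoSelect and PolyA 8 of the 10 genes passed in exact permutation tests adjusted over the 10, r running from 0.87 for Cirbp to 0.98 for Hsp90aa1. Hsph1 (r 0.84, rho 0.74, adjusted p 0.0598) and Hspb1 (r 0.94, rho 0.86, adjusted p 0.0833) did not pass these exact tests. Between NoSelect and RiboZero 9 passed and Hspb1 did not (r 0.91, rho 0.83, adjusted p 0.186, exact). By rank Hsph1 did not pass either (rho 0.74, adjusted p 0.115, exact). Without the 2 mice farthest from the median 6 mice remained, for which an exact test cannot give a p under 0.0208, so the adjusted test has little room to pass and r is given in its place. In PolyA it was -0.19 for Hspb1 and 0.27 for Hsph1 and lay between 0.79 and 0.99 for the other 8 genes. In RiboZero it was 0.48 and 0.38 for the same genes and 0.74 to 0.97 for the other 8.

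A few mice set the ends of the range. KO mouse 6 was the highest KO mouse for all 8 heat shock genes and the lowest for Cirbp, by the mean deviation over RiboZero and PolyA. It stood 1.49 log2 units above the KO mean for Hspa1b, 0.62 for Hspb1, 0.41 for Hspa8 and 0.30 for Hspa5, and 0.42 below it for Cirbp. WT mouse 2 was the highest WT mouse for Hspa1a, Hspa1b, Hsp90aa1, Hsph1, Dnajb1 and Hspb1, at 1.33 above the WT mean for Hspa1b and 0.64 for Dnajb1. WT mouse 1 was the lowest for Hspa5, Hspa8, Hsp90aa1, Hsph1 and Hspb1, at -0.80 for Hsph1 and -0.44 for Hspa5, and the highest WT mouse for Cirbp, at 0.33. WT mouse 4 and KO mouse 5 were the lowest of their genotypes for Hspa1a, Hspa1b, Dnajb1 and Rbm3.

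Cell type markers moved with some of these mice. Of 5 cardiomyocyte markers all were detected, and their summed level ran from 98.6 to 452 CPM in WT and from 36.9 to 298 in KO RiboZero libraries, the highest being WT mouse 2. In PolyA the range was 233 to 1027 in WT, again with mouse 2 highest, and 118 to 653 in KO. Summed smooth muscle markers, 5 of 5 detected, were also highest in WT mouse 2, the top of a WT range of 533 to 879.95 CPM in RiboZero. WT mouse 2 was the lowest WT mouse in the alveolar type 2, endothelial and macrophage sums in both preparations. It was the highest WT mouse in the club and ciliated airway sum in both. That sum ran from 9832 to 16484 CPM in WT RiboZero and from 36950 to 68585 in WT PolyA libraries. KO mouse 6 had the highest alveolar type 2 sum of KO (12787 CPM, range 9075 to 12787) and the lowest lymphocyte and neutrophil sums, 15.5 and 14.4 CPM in RiboZero. The summed level of 10 immediate early genes, which respond to handling and to stress, was highest not in these mice but in WT mouse 3 and KO mouse 3 (628 to 1445 CPM in WT, 425 to 1215 in KO, RiboZero). The part of these differences in the spread of the heat shock genes was not tested.

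Within a preparation the genes rose and fell together across mice in some pairs and not in others. Of the 45 pairs, 20 in RiboZero (18 positive, 2 negative) and 25 in PolyA (20 positive, 5 negative) passed at an adjusted p under 0.05 in permutation tests of r adjusted by Benjamini-Hochberg over the 90, and 18 passed in both. Pairs within a library share its depth and scaling. Pairs of other genes were not tested, so no share over such pairs stands beside these counts. Without WT mouse 2 and KO mouse 6, 6 of these 20, 8 of these 25 and 3 of these 18 still passed. The 3 were Hspa1a with Hspa1b, Hspa1a with Rbm3 and Hsp90aa1 with Hsph1. The coding sequences of Hspa1a and Hspa1b are 98.2% identical, and reads that could be of either were divided by estimation. Their counts are thus not independent measurements. The part of that division in the correlation of this pair was not tested.

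Hspa1a and Hspa1b, whose counts share ambiguous reads, had r 0.96 in RiboZero and 0.98 in PolyA, and rho 0.95 and 0.99. Hspa1a with its co-chaperone Dnajb1 had r 0.83 and 0.93 (adjusted p 0.00466 and 0.00105, permutation tests), and 0.86 in RiboZero without the 2 mice farthest from the median. Hspa1a with the cold-inducible Rbm3 had r 0.80 and 0.72 (rho 0.87 in RiboZero; adjusted p 0.0036 and 0.038, permutation tests), both positive. Hsp90aa1 with Hsph1 had r 0.88 and 0.96.

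Over all mice Hspa5 was only weakly related to Hspa1a, Hspa1b and Dnajb1, and it went against Cirbp. It had r 0.16 and 0.23 with Hspa1a, 0.30 and 0.32 with Hspa1b and -0.060 and 0.045 with Dnajb1. Without WT mouse 2 and KO mouse 6, Hspa5 had r -0.26 and -0.53 with Dnajb1 (adjusted p 0.646 and 0.205, permutation tests). Its rho with Dnajb1 was then -0.67 in RiboZero and -0.70 in PolyA (unadjusted p 0.030 and 0.018, permutation tests). In the same mice Hspa5 had r -0.22 and -0.23 with Hspa1a and -0.0034 and -0.15 with Hspa1b. With Hspb1 it had r 0.69 and 0.79 (adjusted p 0.0464 and 0.0346, permutation tests), with Hsph1 0.71 and 0.70 (adjusted p 0.0505 in each) and with Hspa8 0.90 and 0.86. Without KO mouse 6 and WT mouse 1, the 2 mice farthest from the median, these became -0.21 and 0.094, -0.20 and 0.12, and 0.59 and 0.53. Hspa5 with Cirbp had r -0.86 in RiboZero and -0.79 in PolyA (adjusted p 0.00129 and 0.0107, permutation tests), and rho -0.91 in RiboZero. Without the 2 mice farthest from the median, KO mouse 6 and WT mouse 1, r was -0.83 in RiboZero and -0.40 in PolyA, so in PolyA it rests on those mice. Hspa8 with Cirbp had r -0.79 and -0.78, and -0.54 and -0.34 without the same 2 mice. Cirbp and Rbm3, the cold-inducible genes, had r 0.33 and 0.07 with each other.

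**Figure D4:**
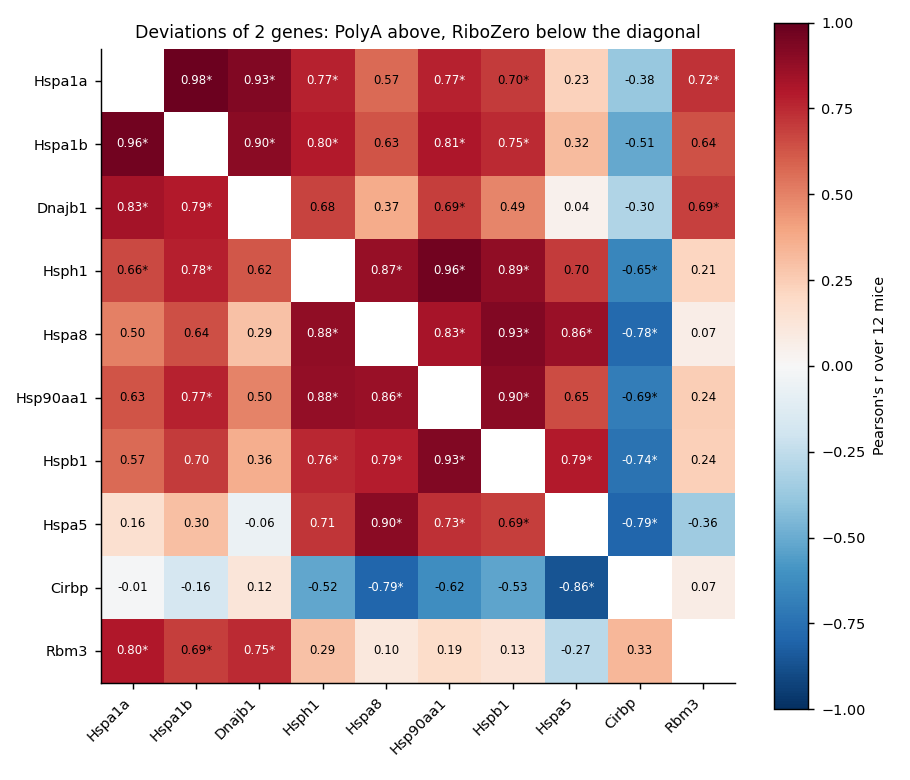
Pearson's r between the deviations of each pair of genes from the genotype mean over 12 mice, PolyA above the diagonal and RiboZero below, with a star at an adjusted p under 0.05 (permutation tests over 90 pairs). The heat shock genes are mostly positive with each other, while Cirbp is negative with Hspa5 (-0.86 and -0.79) and Hspa8.

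Outside the 10 genes, the transcripts whose deviations were most like those of 3 of them were looked up among 10142 genes, by the mean of r over 12 RiboZero and 12 PolyA libraries. For Hspa1a these were Dnaja1 (0.918), Ahsa2 (0.906), Chordc1 (0.889), Zbtb2 (0.849) and Hexim1 (0.845). For Hspa5 they were Hyou1 (0.971), Rangap1 (0.924), Manf (0.922), Hdlbp (0.914) and Surf4 (0.897). For Cirbp they were Acacb (0.879), G0s2 (0.876), Fmo1 (0.868), Arhgap20 (0.834) and Ier3 (0.825). These are the top of a ranked list over libraries that share mice, with no test.

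The preparation changed the measured level of several of the 10. A preparation call required an adjusted p under 0.05 and at least 1 log2 unit. Each fit put only the libraries of its pair of preparations on 1 TMM scale. Between PolyA and NoSelect 2 of 10 were called, both higher in PolyA, where 10% of all rows tested were called higher and 25.1% in either direction. These were Hsph1 (1.149 ± 0.19) and Cirbp (1.01 ± 0.09). CPM were also put on a separate TMM scale of all 32 libraries, which the fits did not use. There Hsph1 stood at 48.5 ± 15.8 CPM in NoSelect (SD, n = 8), 60.5 ± 15.6 in RiboZero (n = 12) and 105 ± 31.2 in PolyA (n = 12). Cirbp stood at 31.2 ± 4.17, 31.5 ± 5.81 and 61.1 ± 8.16. Hspb1 fell just short of a call at 0.97 ± 0.14, with 44.2 ± 9.19, 45.8 ± 8.98 and 84.7 ± 19.1 CPM on the separate scale. The call of Cirbp was lost in 10 of 12 fits that left out 1 mouse.

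By the adjusted p alone, 9 of 10 were higher in PolyA than in NoSelect, beside 42.8% of all rows higher and 79.1% in either direction, the exception being Hspa1a at -0.18 ± 0.36. The median over the 10 was 0.56 and that over all rows tested 0.10. Rbm3 differed by 0.47 and Hspa5 by 0.35, both under the 1.01 of Cirbp. Against RiboZero, 0 of 10 were called in PolyA (23.6% of all rows), and 6 had an adjusted p under 0.05 in edgeR (81.1%): Cirbp 0.96, Hspb1 0.89, Hsph1 0.80, Dnajb1 0.44, Hsp90aa1 0.32 and Rbm3 0.20. Between RiboZero and NoSelect 0 of 10 were called (4.3%), and Hspa8 at 0.36 and Rbm3 at 0.23 had an adjusted p under 0.05 (45.9%). Hspa1a was at -0.74 ± 0.33 there, with an adjusted p of 0.0712 by edgeR.

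Since the same mice stand in each preparation, the comparison was also made with the mouse as a block. All 10 then had an adjusted p under 0.05 for PolyA against NoSelect (83.6% of all rows) and for PolyA against RiboZero (87.2%), and 9 of 10 for RiboZero against NoSelect (57.8%), the exception being Dnajb1. Hspa1a was lower in PolyA than in NoSelect by this pairing (-0.24 ± 0.09, adjusted p 0.0302 by edgeR) and lower in RiboZero than in NoSelect (-0.80 ± 0.07), while Hspa1b was higher (0.82 ± 0.06 and 0.39 ± 0.05). At 1 log2 unit 2 of 10 were again called for PolyA against NoSelect (24.7% of all rows), but Hspb1 (1.05) took the place of Cirbp (0.97).

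**Figure D5:**
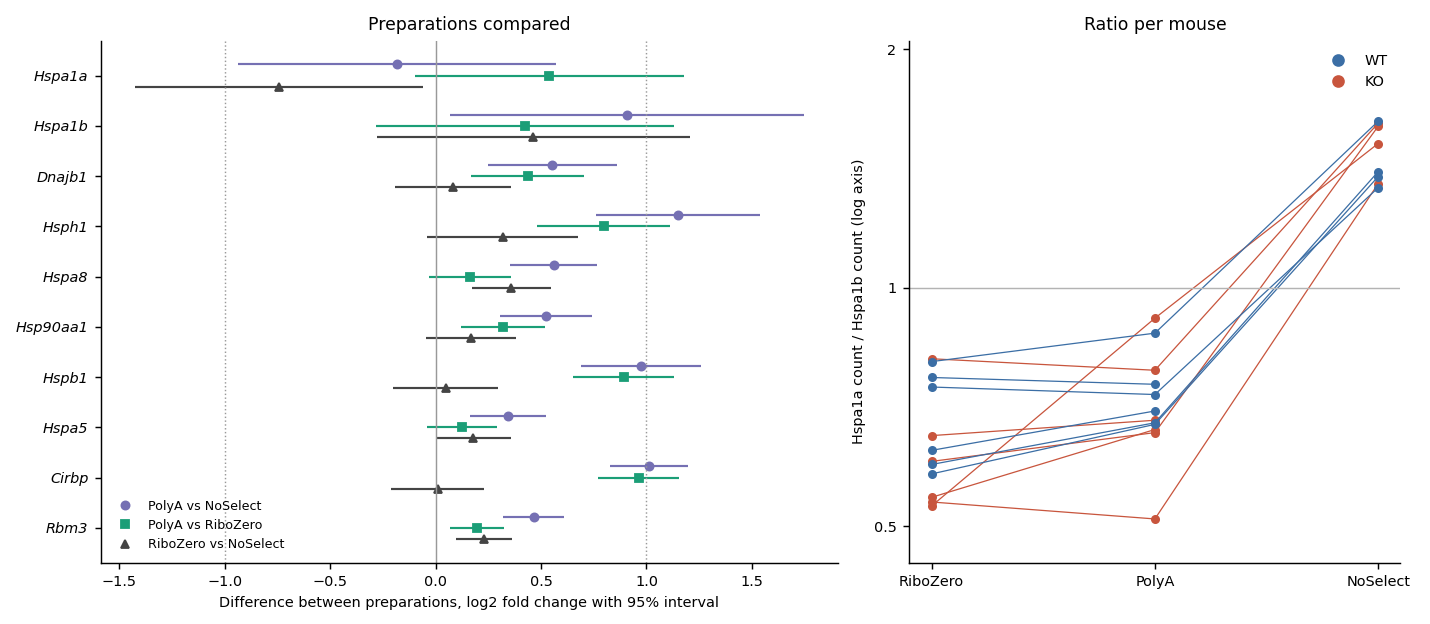
Left, log2 difference between preparations for each gene with 95% intervals from edgeR, dotted lines at 1 log2 unit. Right, ratio of Hspa1a to Hspa1b counts in each mouse by preparation, where NoSelect lies at 1.34 to 1.62 and the other preparations at 0.915 or less.

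The ratio of the paired inducible genes turned with the preparation. Hspa1a counts divided by Hspa1b counts were 0.651 ± 0.106 in RiboZero (SD, n = 12, range 0.530 to 0.814), 0.719 ± 0.107 in PolyA (n = 12, range 0.511 to 0.915) and 1.48 ± 0.123 in NoSelect (n = 8, range 1.34 to 1.62). The NoSelect ratios did not overlap those of the other preparations. Within mice the log2 ratio was higher in NoSelect than in PolyA by 1.04 ± 0.22 (SD), in 8 of 8 mice, and higher than in RiboZero by 1.195 ± 0.23, in 8 of 8 (exact sign-flip test, p 0.0078 in each, the smallest that 8 mice allow, 0.0117 after adjustment over 3 comparisons). PolyA exceeded RiboZero by 0.15 ± 0.23 in 8 of 12 mice (exact sign-flip test, p 0.0186, adjusted 0.0186). KO mouse 5 alone differed by 0.79, and without it the mean was 0.087 ± 0.12 (exact sign-flip test, p 0.0371).

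The sequences of these genes bear on how their counts could be divided. The coding sequences of Hspa1a and Hspa1b, 1923 and 1926 bases long, were 98.2% identical with 34 differences, and 88.4% of the 31-base words of the Hspa1a coding sequence occurred in Hspa1b. Their 3′ untranslated regions, 813 and 646 bases long, shared 0% of such words. Reads from the coding part can be assigned to either gene only in part, so each alone is uncertain and their sum is less so. The sum stood at 57.2 ± 28.5 CPM in WT and 61.9 ± 44.2 in KO RiboZero libraries (n = 6 each). For that sum KO minus WT was 0.11 in RiboZero, and PolyA minus NoSelect 0.37.

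Other members of the 10 share sequence with processed copies. Of the 31-base words of the principal transcript, Hspa8 shared 77.2% with other genes, mostly Gm15459 and Gm8355, Hsp90aa1 62.9%, mostly Gm12346, and Hspb1 61.7%, all with Hsp25-ps1. Rbm3 shared 16.3%, Dnajb1 0.441%, Hspa5 0.0275%, and Hsph1 and Cirbp 0%. The Gm8355 row held 2908, 2445, 3513 and 5763 counts in the NoSelect libraries of KO mouse 4, KO mouse 5, WT mouse 6 and KO mouse 6, and 0 in the other 4. Those 4 libraries thus had 11.3% to 11.7% of the summed counts of both rows in Gm8355, while every RiboZero and PolyA library held at most 27 counts. With both rows summed, KO minus WT of Hspa8 in NoSelect was 0.17 in place of 0.08, and PolyA against NoSelect 0.47 in place of 0.56. Gm20481 and Rbm3os, which overlap Hspa1a and Rbm3 on the opposite strand, had at most 2 and 15 counts in any library, and the libraries were made with stranded kits, per the labels' protocols.

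Among the 85 tested genes of the pathway lists, 5 were called higher and 0 lower in PolyA than in NoSelect (5.88%, beside 25.1% of all rows), 5 higher and 1 lower in PolyA than in RiboZero (7.06%, beside 23.6%), and 2 higher and 0 lower in RiboZero than in NoSelect (2.35%, beside 4.3%). Between PolyA and NoSelect, Stub1, a ubiquitin ligase that acts on chaperone clients (1.151), Hspe1, the co-chaperonin of mitochondria (1.23), the small heat shock protein Cryaa (1.41) and the splicing factor U2af1l4 (1.46) were called higher in PolyA. Between PolyA and RiboZero 3 of 6 tested small heat shock proteins were called higher in PolyA: the largest were Cryaa (1.26) and Hspb7 (1.22). Hspa4l, an HSP110 relative of Hsph1, had 286 to 767 counts in all 12 RiboZero libraries but 0 in 8 of 12 PolyA libraries and 0 to 4 in NoSelect.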

How the data were processed

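Lung RNA of 12 mice was sequenced as 32 libraries after up to 3 preparations. Estimated counts per gene stand in 1 table that the authors deposited, made with Salmon 1.4.0 and UMI-tools 1.1.1 on build GRCm38, per the submitters' processing notes. All 32 columns matched a library by name and 0 were left unused. Of the deposited estimated counts of the 10 genes 70.9% were not whole, and counts were rounded. Symbols and positions came from GENCODE M21, promoters from RefSeq.

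In R 4.3.3, edgeR 4.0.16 was run on all rows with TMM scaling, filterByExpr by group, glmQLFit, glmQLFTest and p adjusted by Benjamini-Hochberg. Each preparation gave its own comparison of KO with WT, called at an adjusted p under 0.05. Fits of preparations held genotype as a covariate, and their calls also needed 1 log2 unit. Genotype by preparation was tested as an interaction. Deviations of mice are on log2 CPM (prior count 2). Their correlations were tested with 100000 permutations, or exactly for 8 mice, with scipy 1.17.1 under Python 3.11.15 (pandas 2.3.3, numpy 2.4.6). The fits were tested on simulated counts.

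The 10 genes, the lists of pathways and markers and the naming rule were chosen with earlier results of these data known. By that rule all 10 are named. Of each list at most 4 genes with the lowest adjusted p in a KO comparison and 2 per preparation comparison by size may be named, and 5 genes most like Hspa1a, Hspa5 and Cirbp each. Libraries of one mouse are paired across preparations, because the labels number the animals. Over 5578 rows the deviations of libraries of one mouse correlated at 0.52 to 0.87. Equal numbers in WT and KO are different mice. Chi-square per degree of freedom between replicates was 6.67 to 65.9 over 72 pairs, so each library counted as 1 replicate.

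Total counts limit the precision of low genes, and the fewest counts of any of the 10 genes in a library were 148, for Hspa1a in RiboZero. Alternatives tried were median-of-ratios scaling, DESeq2 1.42.0, no filter or at least 10 counts in every library, a replicate block, removal of Lars2 and the Gm42418 transcript, Hspa1a and Hspa1b summed, mice 3 to 6 alone, 1 fit of all 32 libraries, 1 genotype alone, and leaving out each mouse. Added after seeing the data were Hspa8 and Gm8355 summed, fits without WT mouse 2 and KO mouse 6 together, and the Hspa1a to Hspa1b ratio without each mouse in turn.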

Additional observations from a re-analysis of the deposited data

Results flagged for a closer look

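Of 60 groups, each of 1 gene in 1 genotype and preparation, 10 held a value whose gap to the nearest other value was large for the range of the group (Dixon's criterion at 95%). For normally spread values chance gives about 1 in 20, here 3.0. The rule was applied to CPM and not to other rows, so no share over all rows stands beside the 10 of 60. Of the 10 values 5 were of KO mouse 6 and 3 of WT mouse 2, and several stand in the same library.

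KO mouse 6 was high for Hspa5 in RiboZero (gap over range 0.738, 495 against 405 CPM in the nearest library), for Hspa8 in RiboZero (0.794, 1891 against 1411 CPM) and for Hspb1 in RiboZero, PolyA and NoSelect (0.626, 0.722 and 0.907). For Hspb1 it had 1.42, 1.53 and 1.70 times the CPM of the nearest KO library. WT mouse 2 was high for Hspa1a in PolyA (0.631, 108 against 53.5 CPM) and for Hspa1b in RiboZero and PolyA (0.695 and 0.763, the latter at 155 against 61.0 CPM). WT mouse 1 was low for Hspb1 in RiboZero (0.667, 46.7 against 60.0 CPM) and high for Cirbp in PolyA (0.626, 121 against 102 CPM).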

How the results depend on the processing

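Groups held 4 or 6 mice, and the sign of KO minus WT of Hspa1a and Hspa1b turned on single mice. Each of the 10 genes had at least 148 counts in every library, and the part of depth was not tested. Under the alternatives other than leaving out a mouse, 585 values of single genes kept their direction and their side of the threshold, 10 changed sign, 4 passed and 5 lost it. The cause of a change was not tested where none is given.

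Over all genes the calls between KO and WT numbered 579, 694 and 372 (RiboZero, PolyA, NoSelect) and became 976, 1355 and 878 with DESeq2, and 891 and 1564 in RiboZero and PolyA with all 32 libraries in 1 fit. With mice 3 to 6 alone, fewer samples, RiboZero had 255. Leaving out 1 mouse gave 380 to 644, 442 to 1066 and 148 to 472. Without KO mouse 6 in NoSelect 1 of the 10 genes was called, otherwise 0. The NoSelect fit without KO mouse 6 called 472 of all rows, the most of the NoSelect fits that left out 1 mouse. The replicate block over equal numbers of WT and KO, which are different mice, gave 372 in RiboZero and 103 in NoSelect and changed no call of the 10 genes, and deviations of equally numbered mice correlated at -0.19 to 0.42.

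Rows called between preparations fell or rose with the number of rows tested. With no filter the count was 7039 for PolyA against NoSelect (4619 in the main test) and 6552 for PolyA against RiboZero (4292), where 1 of the 10 genes, Cirbp, was then called. With at least 10 counts in every library it was 2902 and 2560, and 301 for RiboZero against NoSelect (752). The 2 of 10 called for PolyA against NoSelect became 1 with DESeq2, median-of-ratios scaling, at least 10 counts in every library, or KO libraries alone, and 1 to 2 when 1 mouse was left out. Interaction calls over all rows, 0 in edgeR, were 13, 9 and 11 with DESeq2, 1 with the replicate block for RiboZero against NoSelect and for PolyA against RiboZero, and 0 to 2 without 1 mouse for PolyA against NoSelect, 2 without WT mouse 6.

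Signs that turned were small or of the Hspa1 pair. KO minus WT of Hspa1a in RiboZero was 0.11 when summed with Hspa1b and 0.35 with mice 3 to 6 alone, and in PolyA 0.19 with those mice. Hspa1b in PolyA was 0.46 with mice 3 to 6 alone, and 0.049 without WT mouse 2 and KO mouse 6, where Cirbp was 0.015. PolyA against NoSelect for Hspa1a was 0.37 summed and 0.21 in WT alone. Cirbp in RiboZero against NoSelect was -0.10 with the replicate block of the mouse and -0.0022 in KO alone. Leaving out 1 mouse in RiboZero gave ranges of -0.42 to 0.25 for Hspa1a, -0.29 to 0.51 for Hspa1b, -0.053 to 0.10 for Cirbp and -0.0027 to 0.094 for Rbm3. In PolyA they were -0.48 to 0.19, -0.43 to 0.43, -0.075 to 0.038 and -0.0096 to 0.090 for the same genes. In NoSelect they were -0.028 to 0.87 for Hspa1a, -0.17 to 0.86 for Hspa1b, -0.031 to 0.15 for Hspa8, -0.025 to 0.22 for Hsp90aa1, -0.15 to 0.33 for Hsph1 and -0.056 to 0.13 for Cirbp. Between preparations they were -0.40 to 0.011 for Hspa1a in PolyA against NoSelect and -0.030 to 0.030 for Cirbp in RiboZero against NoSelect.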

Other observations

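Clock genes were read beside these transcripts after their values had been seen. Per2, a repressor of the clock whose transcript is also raised by heat, was highest in WT mouse 2 and KO mouse 6 and lowest in mouse 1 of each genotype, in RiboZero and in PolyA. Its lowest, median and highest CPM were 30.7, 60.4 and 71.8 in WT and 98.5, 142 and 175 in KO RiboZero libraries, and 37.8, 79.4 and 103 in WT and 109, 172 and 214 in KO PolyA libraries. These are the mice that were highest within their genotypes for Hspa1b. Nr1d1, a repressor of Arntl, was also highest in WT mouse 2, at 29.7 CPM in RiboZero (WT lowest and median 9.23 and 13.0) and 66.6 CPM in PolyA (27.4 and 32.9). It stood at 0.383 to 0.633 CPM in KO RiboZero libraries. Its highest KO mouse was not mouse 6 but mouse 2 in RiboZero and mouse 1 in PolyA. Dbp, read with them, was highest of WT in mouse 2 (3.80 CPM in RiboZero, 10.2 in PolyA). In KO it was lowest in mouse 6 (1.79 and 1.73 CPM), the reverse of Per2.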
